A study of Rattus norvegicus with 6 samples.

Results

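Probes for microRNAs (miRNAs) of leukocytes and inflammation were read in rat kidney after treatment with aristolochic acid (AA), a nephrotoxic carcinogen of Aristolochia plants. The members are 12 of the 5560 miRNA probes of the array. Of these, 6 carry the rat names miR-146a, miR-146b, miR-150, miR-223, miR-142-3p and miR-142-5p, and 6 are probes named miR-155 in any species, none of which has a rat name. Passenger strands, whose names end in an asterisk, were left out. The members were chosen partly on the signals of these same arrays in AA and control, so their values are given as a description and no test is read from them. The series compared kidneys of 3 control and 3 AA rats, with 1 array per animal. All 6 animals were male Big Blue transgenic rats on the Fisher 344 strain, 6 weeks old at the start. AA was given as its sodium salt by gavage at 10.0 mg/kg, 5 times a week for 12 weeks, and the AA animals were killed 1 day after dosing ended. Controls, which were untreated, are replicates 13, 14 and 15, and AA animals are replicates 19, 20 and 21. Big Blue rats carry a bacterial reporter transgene for counting mutations, which controls and AA animals share. RNA came from pieces of whole kidney, so fewer cells of a type and less of a miRNA per cell cannot be told apart.

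A miRNA guides the silencing complex to messenger RNAs, mainly through its seed, bases 2 to 8 from the 5′ end. miR-155 is made from a long non-coding transcript that is switched on in activated lymphocytes and macrophages. miR-146a is induced through NF-kB and lowers the signalling proteins Traf6 and Irak1, which closes a feedback loop on that pathway, and miR-146b is its close relative. miR-142 is made in nearly all blood cell lineages, miR-223 mainly in granulocytes and monocytes, and miR-150 in mature lymphocytes, where it restrains Myb. Healthy kidney holds comparatively few leukocytes, while injured kidney can hold many.

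The targets of 6 member probes were identical to rat mature miRNAs in RefSeq (GRCr8). They are printed because the probes turn on small differences between them, with the seed in capitals.
rno-miR-155-5p: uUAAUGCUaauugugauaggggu
rno-miR-146a-5p: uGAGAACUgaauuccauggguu
rno-miR-146b-5p: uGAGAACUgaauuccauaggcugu
rno-miR-142-3p: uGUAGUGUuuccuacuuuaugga
rno-miR-142-5p: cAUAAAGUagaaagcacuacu
rno-miR-223-3p: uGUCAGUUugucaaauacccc
miR-146a and miR-146b share their seed, and their first 22 bases are identical at 20 positions, with the first of 2 differences at position 18. miR-146b is 2 bases longer. Signal from one on the probe of the other was not tested. The probe with the rat miR-155 sequence is the one named for mouse, mmu-miR-155. It is called the mouse-named miR-155 probe here. The human-named (hsa), zebrafish-named (dre) and zebra finch-named (tgu) miR-155 targets differ from it by 1 base, U12C, with the rat base first and positions counted from 1 at the 5′ end. The dre and tgu targets are also shorter, by 1 and 2 bases. The lamprey-named (pma) target differs at 6 positions. The pig-named target (ssc-miR-155) is unlike the others: shifted by 1 base, it is identical to the rat passenger arm, miR-155-3p, at 19 of 20 aligned positions.

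On GRCr8 the mature miR-155-5p lies at chr11:37261117-37261139 on the plus strand, inside the long non-coding RNA gene Mir155hg. miR-146a-5p lies at chr10:28350053-28350074 on the minus strand, inside the long non-coding RNA gene LOC134480673 and next to Pttg1. miR-146b-5p lies at chr1:255144874-255144897 on the plus strand, where its hairpin overlaps the protein-coding gene C1h10orf95. Both arms of miR-142 lie on the plus strand, miR-142-5p at chr10:73055119-73055139 and miR-142-3p at chr10:73055155-73055177. Their hairpin overlaps Tspoap1 and is next to Mpo, which encodes the myeloperoxidase of granulocytes. miR-223-3p lies at chrX:65151450-65151470 on the plus strand, inside the long non-coding RNA gene LOC120099372.

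The arrays differed in brightness, and AA replicate 20 stood apart. The mean probe signal above the median of the empty spots was 149 on that array and between 263 and 484 on the other 5. Of the 1132 tested probes, those that reached an intensity of 32 on at least 1 array, 66.8% were well above background on AA replicate 20 and 84.9% to 97.9% elsewhere. Well above background means a scanner signal over the empty-spot median plus 3 robust SDs. Deposited intensity below is the authors' normalized value on a linear scale, and log2 signal is the scanner signal after background correction and quantile normalization here. The offset of 50 in that correction compresses differences between dim values. As for the tissue label, 11 of 14 probes for miRNAs of kidney tubule epithelium reached 32, but the tubule miRNAs miR-204 and miR-141 stayed under 32 on every array. So did miR-30b-3p, listed by its rat name, whose probe carries the mouse passenger-strand name mmu-miR-30b*.

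The members split into bright and dim probes. miR-146a, miR-146b and miR-150 reached 32 on all 6 arrays. The mouse-named miR-155 probe did so on 5, namely 2 control and 3 AA arrays. The hsa and dre miR-155 probes reached 32 on AA replicate 19 alone, and the other 6 members did so on no array. By the background measure, 4 members were well above background on every array and 4 on none. The mouse-named miR-155 probe barely passed on control replicate 15, with a scanner signal of 69.5 against a cut of 69.3. Thus 6 of 12 members passed the filter and entered the comparison, 2 of them through 1 AA array.

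In limma, over all 1132 tested probes, 0 of the 6 tested members passed an adjusted p of 0.05, with a background of 0.177% of tested probes called. At an unadjusted p under 0.05 there were 2, miR-146a and the mouse-named miR-155 probe, with a background of 4.95%. The adjusted p-values of the 6 tested members lay between 0.832 and 0.885. The log2 signals of AA and control did not overlap for 3 members, with a background of 9.98%. Of these 3, 2 lay above control, with a background of 4.42%, and 1 lay below, with a background of 5.57%. The median log2 change of the 6 tested members was 0.43, and 5 were higher in AA. Over all tested probes the median was -0.05, and 519 were higher. Of the 6 tested members, 3 are miR-155 probes, and the 2 that lay above control are both among them. The hsa and dre miR-155 probes passed the filter only through AA replicate 19, which favours a higher value in AA. These counts and shares also follow from a choice made with the values known and carry no test.

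miR-155 gave the largest change of the set on the reported scale, though miR-146a was larger in size with array quality weights and with no normalization. The deposited intensity of the mouse-named probe was 33.7 in control replicate 13, 58.7 in 14 and 11.3 in 15, and it was 229.8 in AA replicate 19, 283 in 20 and 86.0 in 21. Triplets of values below keep this order. Every AA value was above every control value, and the lowest AA value, replicate 21, was 86.0 against a highest control value of 58.7. On the log2 scale the signals were 6.72, 7.01 and 6.24 in control and 8.24, 8.69 and 7.42 in AA. The means were 6.66 ± 0.39 in control and 8.12 ± 0.64 in AA (SD, n = 3). This made a log2 change of 1.46 (standard error 0.40), or 2.75-fold, and it was the 22nd largest of 1132 in size. It was 1.35 without AA replicate 20 and 1.24 without AA replicate 19, and AA stayed above control both times. Groups already apart stay apart when 1 value is removed, unless the renewed normalization moves them. The background without overlap was 26.5% of tested probes without AA replicate 20 and 29% without AA replicate 19. An offset of 16 in the background correction gave 1.86, and subtraction of the empty-spot median in its place gave 2.64.

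The other miR-155 probes were dimmer. The hsa probe, 1 base away from the rat sequence, had a deposited intensity of 12.3, 15.1 and 6.79 in control and 100.2, 25.9 and 25.2 in AA. AA lay above control here too, but AA replicate 19 was far above the other AA arrays. The log2 change was 0.51 (standard error 0.31), and 0.21 without AA replicate 19. It was 1.45 with the empty-spot median subtracted and 1.81 in the deposited values. The dre probe was at 5.47, 6.50 and 1.76 in control and 56.0, 5.81 and 5.43 in AA, so AA replicates 20 and 21 lay within the control range. It was well above background on AA replicate 19 and on no other array, so the changes given next rest mostly on background values. Its fitted log2 change was 0.23 (standard error 0.28), and 0.02 without AA replicate 19. The empty-spot subtraction gave 1.14 and the deposited values 1.41. The tgu probe, with the same base difference and the shortest of the 3, stayed at or under 4.07 on all 6 arrays. The pma probe read up to 10.7 in control and up to 1.29 in AA, and was well above background on control replicate 13 alone. The ssc probe, close to the passenger arm, read at most 0.764 on any array. These probes bind the same or related RNA in the same samples, so they are not separate measurements of miR-155.

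**Figure D1:**
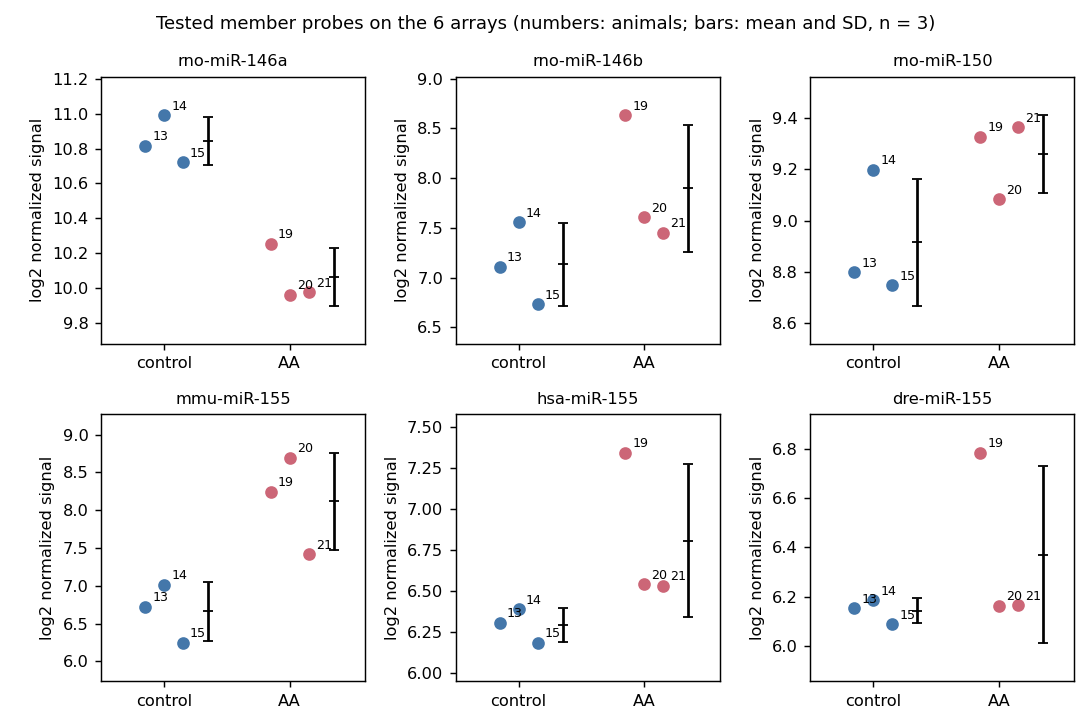
Log2 normalized signal (y axis, a separate range in each panel) of the 6 tested member probes on the 3 control and 3 AA arrays, with the replicate number beside each point and the mean and SD of each group as a bar. The groups do not overlap for rno-miR-146a (AA below), mmu-miR-155 and hsa-miR-155 (AA above), and AA replicate 19 is the highest AA array for hsa-miR-155, dre-miR-155 and rno-miR-146b.

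miR-146a ran the other way. Its deposited intensity was 1698, 1872 and 1451 in control and 1039, 1362 and 778 in AA. The highest AA value, replicate 20, was below the lowest control value, replicate 15. The log2 signals were 10.82, 10.99 and 10.72 in control and 10.25, 9.96 and 9.98 in AA, with means of 10.84 ± 0.14 and 10.06 ± 0.17 (SD, n = 3). This is a log2 change of -0.78 (standard error 0.25), or a control level 1.72 times that of AA. The change was -0.73 without AA replicate 20.

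miR-146b, which shares its seed, was dimmer and more scattered. Its deposited intensity was 65.8, 112 and 43.0 in control and 307, 149 and 88.9 in AA, so that AA replicate 21 lay below control replicate 14. The log2 means were 7.13 ± 0.41 in control and 7.90 ± 0.64 in AA (SD, n = 3). This made a log2 change of 0.76 (standard error 0.40), or 1.70-fold. Without AA replicate 19 it was 0.35, so AA replicate 19 supplied much of the difference, and without AA replicate 20 it was 1.04.

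miR-150 differed little between the groups. Its deposited intensity was 360.2, 511 and 313 in control and 496, 562 and 514 in AA. Control replicates 13 and 15 were below every AA array, and control replicate 14 lay among them. The log2 means were 8.92 ± 0.25 in control and 9.26 ± 0.15 in AA (SD, n = 3), a log2 change of 0.34 (standard error 0.26), or 1.27-fold. Its mean change was close to the median of the absolute changes of all tested probes, 0.28, and below the median standard error of 0.35.

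The markers of granulocytes and of all blood lineages were at or near background. miR-223 had a deposited intensity of 8.81, 11.4 and 7.04 in control and 17.4, 10.7 and 9.92 in AA. AA replicate 19 was highest, the other AA values lay within the control range, and the probe was well above background only on control replicate 14 and AA replicate 19. miR-142-3p read at most 0.709 in control and between 1.40 and 4.12 in AA. miR-142-5p read at most 2.97 in control and at most 4.82 in AA. Neither arm was well above background on any array, so the order of their values carries no information on level. A difference in these 3 probes was not detectable at this signal over background.

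The separation of the groups depended on the scaling between arrays. Before any normalization, the scanner signal of the mouse-named miR-155 probe above the empty-spot median was 97.1, 65.2 and 12.4 in control and 658, 61.9 and 69.9 in AA. AA replicate 19 was therefore the only AA array above all controls. For miR-146a the same measure was 3927, 2269.9 and 1331 in control and 2990.5, 176 and 801 in AA, with the dim AA replicate 20 lowest and AA replicate 19 within the control range. For miR-146b it was 185, 127 and 35.5 in control and 932, 36.8 and 72.4 in AA. For miR-150 it was 933, 597 and 252 in control and 1659, 83.6 and 471 in AA. Thus the unscaled groups overlapped for all 4. With no normalization the log2 change of the mouse-named miR-155 probe was 0.98 and that of miR-146a was -1.46, with overlapping groups, and that of miR-150 turned to -0.20. All tested probes together then had a median of -0.32.

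A ratio of signals on the same array needs no scaling between arrays, and it was added after the values were seen. The scanner signal of the mouse-named miR-155 probe was 2.47%, 2.87% and 0.928% of that of miR-146a in control and 22.0%, 35.1% and 8.72% in AA. Every AA array, including AA replicate 20, was above every control array. The ratio of miR-146b to miR-146a was 4.72%, 5.59% and 2.67% in control and 31.2%, 20.9% and 9.03% in AA, again without overlap. That of miR-150 to miR-146a was 23.8%, 26.3% and 18.9% in control and 55.5%, 47.4% and 58.7% in AA, also without overlap. The ratios share miR-146a as denominator, and it read lower in AA on the normalized scale. The background for AA above control in this ratio was 26.3% of 1125 probes with signal on all arrays. Over those probes the median log2 difference was 0.89, against 3.33 for the mouse-named miR-155 probe, 2.13 for miR-146b and 1.24 for miR-150. By size the miR-155 difference stood 11th of 1125, that of miR-146b 50th and that of miR-150 348th. A ratio shows unequal change of 2 probes and not which of them changed. The lowest ratio of the miR-155 probe, on control replicate 15, rests on a signal near background.

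**Figure D2:**
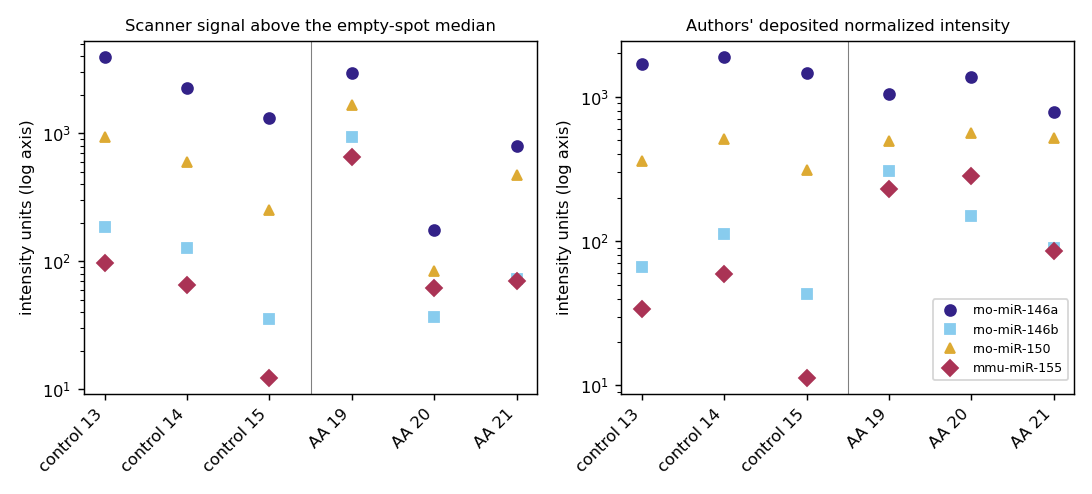
Intensity (y axes, log scale) of 4 member probes on each array (x axes, the grey line parting control from AA), as scanner signal above the empty-spot median on the left and as the authors' deposited normalized intensity on the right. On the left AA replicate 20 is dim for rno-miR-146a (176), and on the right it is the highest AA array (1362), while mmu-miR-155 is above all controls on every AA array only on the right.

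Probes of the same miRNAs named for other species gave a check on sequence, in the same samples. For miR-146a, 4 further probes were present and 2 were tested, and both were lower in AA. The most different was the platypus-named probe (oan-miR-146a), which differs by U17C, with a log2 change of -1.06 and a standard error of 0.44. The cow-named probe (bta-miR-146a), with G18A and 2 more bases, had -0.58 (standard error 0.30). Its A at position 18 and its length are those of rat miR-146b, and which of the 2 miRNAs it read was not tested. The zebrafish-named probe differs by G18A G20A U22G and read at most 3.59 on any array.

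The miR-146b probes disagreed in direction. Of 6 further probes 4 were tested, and all 4 were lower in AA, between -1.61 and -0.04, while the rat probe was higher. The human-named probe (hsa-miR-146b-5p) has the same sequence but for 2 bases fewer, and its log2 change was -0.14 (standard error 0.62). Its deposited intensity was 94.8, 197 and 40.4 in control and 299.7, 16.2 and 57.7 in AA, so it read low on AA replicate 20, where the rat probe read 149. The pig-named probe (ssc-miR-146b), 3 bases shorter, had -0.29, and the chicken-named probe (gga-miR-146b), with U22G, had -0.04. The most different was dre-miR-146b, which differs by U17A A18G C21U U22G, at -1.61 (standard error 0.58). By sequence this target is closer to rat miR-146a, with 2 differences, than to rat miR-146b, with 4. Its deposited intensity was 635, 799 and 268 in control and 336, 59.0 and 116 in AA. In control it was thus brighter than the rat miR-146b probe, whose target also has 2 differences from rat miR-146a. How much of the signal of the rat miR-146b probe came from miR-146a was not tested. The direction of the mean change thus differed between the rat probe and shorter probes of the same sequence, with overlapping groups for each.

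For miR-150, all 4 further probes were tested, 2 higher and 2 lower in AA, between -0.14 and 0.44. bta-miR-150, with 1 base more, had 0.30. oan-miR-150 had 0.44, with AA above control on all arrays, and the opossum-named probe (mdo-miR-150) -0.05. The probe most different from the rat one was dre-miR-150 at -0.14, with a deposited intensity of 14.0 on AA replicate 20 and between 94.7 and 379.9 elsewhere. For miR-223, both further probes were tested through AA replicate 19. The human-named probe, with 1 base more than the rat one, read 56.9 there and at most 9.64 elsewhere, and its log2 change was 0.07. The platypus-named probe, with C21U and also 1 base longer, had the larger change, 0.37, and read 116 there and at most 19.8 elsewhere. None of the 4 further miR-142 probes reached 32 on any array.

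**Figure D3:**
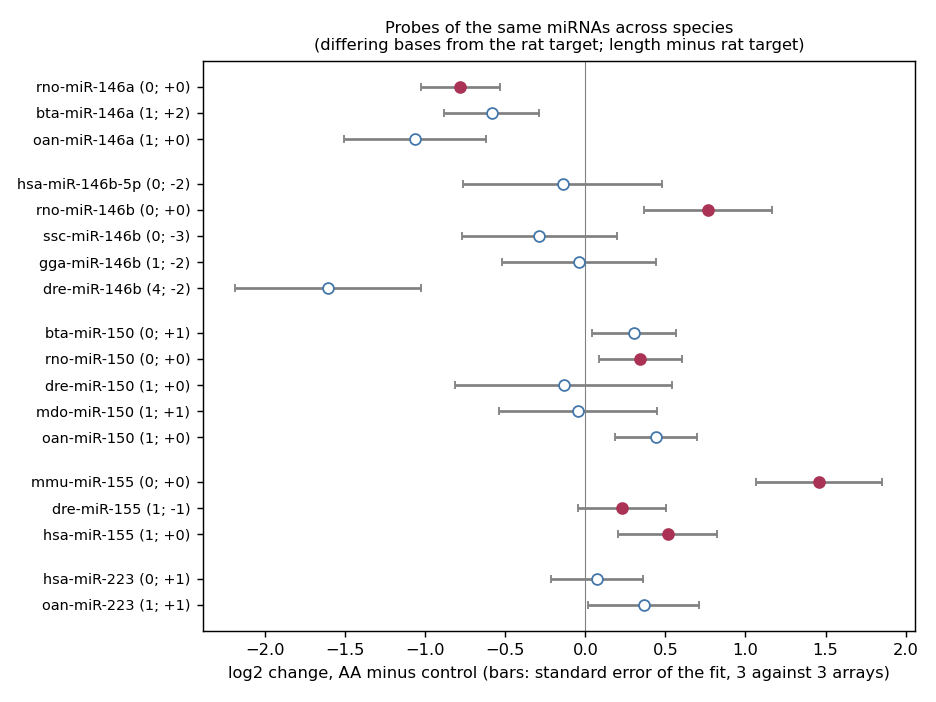
Log2 change of AA minus control (x axis, bars the standard error of the fit) for tested probes of the member miRNAs, with filled points for members and open points for probes named for other species, and in brackets the number of bases that differ from the rat target and the difference in length. The miR-146a probes all lie below 0, while rno-miR-146b (0.76) lies above 0 and the other 4 miR-146b probes at or below -0.04.

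Passenger strands were mostly dark. Of 22 probes with an asterisk in their name for these miRNAs, 2 reached 32 on any array. hsa-miR-150* did so on control replicates 13 and 14, at 41.8 and 35.1, and had a log2 change of -0.34. tgu-miR-146a* did so on 5 arrays, with a log2 change of -1.26 and a standard error of 0.52. Despite its name, its target differs from the rat miR-146a guide strand by only G20A U21C, so its target resembles the guide strand. The rat passenger strand miR-146a* read at most 3.10 on any array, rat miR-146b* at most 2.84, and both miR-146b-3p probes at most 2.52. Rat miR-150* read 31.5 on control replicate 15, just under the threshold, and at most 7.95 elsewhere.

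Other miRNAs with known roles in immune cells gave no common direction. Of 17 probes on that list, 14 were tested, 7 higher and 7 lower, with a median log2 change of -0.02, and 0 passed the adjusted threshold in limma. The highest was miR-21, which is widely raised in injured tissue, with a deposited intensity of 1866, 1753 and 880.4 in control and 8544, 2599.9 and 3612 in AA. AA lay above control, and the log2 change was 1.56 (standard error 0.60, adjusted p = 0.885 in limma). The lowest was miR-27a at -0.95, where AA replicate 20 read 93.4 and the other arrays between 936 and 1242.

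Markers of other cells of the kidney were read beside the members, and their part in the values of the members was not tested. All 5 probes of smooth muscle and fibroblasts were tested and were higher in AA, with a median of 0.43, from 0.06 for miR-143 to 0.74 for miR-199a-3p. For miR-199a-3p and for miR-214, at 0.72, AA lay above control. The summed deposited intensity of the 5 was 2520 to 3794 in control and 3483 to 4973 in AA. Of 14 probes of tubule epithelium 11 were tested, 3 higher and 8 lower, with a median of -0.19, from -0.82 for miR-194 to 0.58 for miR-200a. AA lay above control for miR-200a and for miR-200c, at 0.39, and below it for miR-194. Their sum was 19239 to 20823 in control and 11612 to 23505 in AA, with AA replicate 20 lowest. The endothelial miR-126 had -0.28, with 1210 to 1437 in control and 602 to 1646 in AA. Of red blood cell markers, miR-451 was tested at -0.34, with 66.3, 48.4 and 50.4 in control and 75.7, 8.36 and 16.3 in AA, and miR-144 was under 32 on every array. Of the 32 listed probes tested, 0 passed the adjusted threshold in limma, with a background of 0.177%. An unadjusted p under 0.05 was found for 4, with a background of 4.95%. AA lay above control for 5, with a background of 4.42%, and below it for 1, with a background of 5.57%. The lists were chosen with earlier results of these data known, so these counts carry no test. The summed intensity of the 12 members was 1848 to 2594 in control and 1518 to 2401 in AA.

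**Figure D4:**
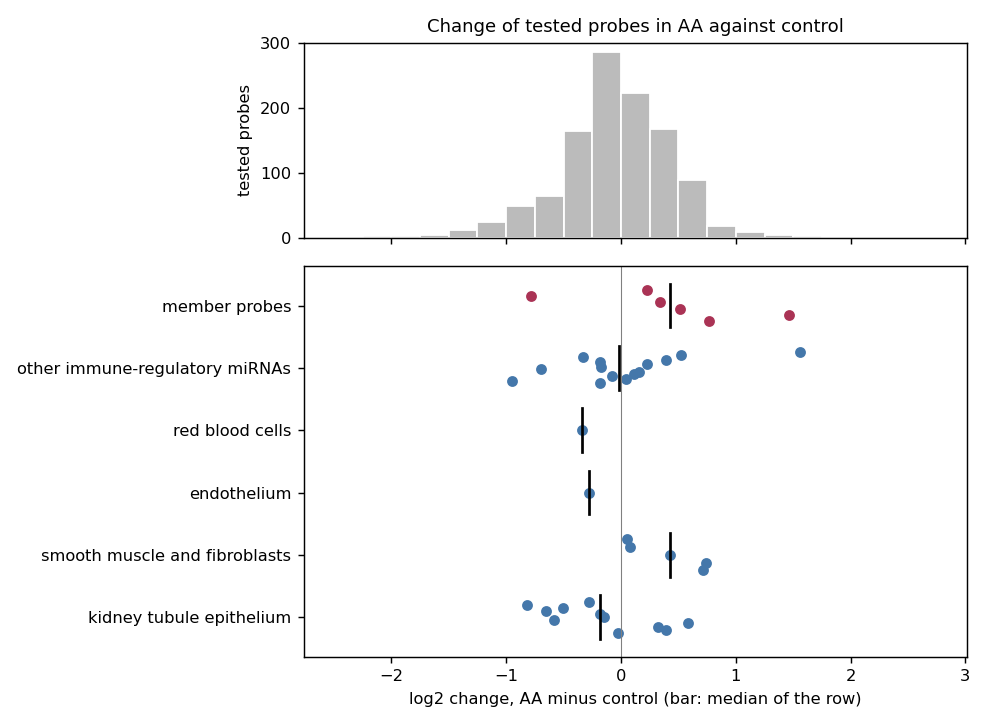
Top, number of tested probes (y axis) by log2 change of AA minus control (x axis) over all 1132 tested probes; bottom, the same change for each tested probe of the members and of 5 lists of other miRNAs, with a bar at each median. The members range from -0.78 to 1.46 with a median of 0.43, and the 5 smooth muscle and fibroblast probes are all above 0.

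The rat-named probes with the most similar pattern were found for miR-146a, miR-146b, miR-150 and the mouse-named miR-155 probe by the root mean square difference of centred log2 signals over the 6 arrays, among 177 probes. For miR-146a they were miR-26b at 0.18, miR-375 at 0.21 and miR-652* at 0.27, against a median of 0.54 over all candidates. For miR-150 they were let-7e at 0.06, miR-195 at 0.15 and miR-125b-5p at 0.16, against a median of 0.40. For miR-146b they were miR-322 at 0.26, miR-20b-5p at 0.29 and miR-20a at 0.34, against 0.68. For the mouse-named miR-155 probe the nearest were miR-15b at 0.48, miR-183 at 0.50 and miR-31 at 0.54, against 0.94. All points share the same 6 arrays and their brightness. Of these 12 neighbours, 3 were again nearest under median scaling and 4 in the deposited values.

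Across 18 alternative settings the direction of the mouse-named miR-155 probe, of miR-146a and of miR-146b was kept. The log2 change of the miR-155 probe ranged from 0.78 to 2.64, and AA lay above control in 17 of 18. That of miR-146a ranged from -1.46 to -0.69, with AA below control in 17 of 18. In both the exception was no normalization. Settings that changed only the filter, the test or the weights used the same log2 signals, so they could not change the overlap. Leaving out 1 array only removed a value from groups already apart, beside the renewed normalization. The counts of 17 are therefore no measure of stability. Over all tested probes, the share without overlap ran from 5.04% with no normalization to 29% without AA replicate 19. With array quality weights, which give less weight to arrays that deviate most, the change was 0.78 for the miR-155 probe, -0.89 for miR-146a and 0.35 for miR-146b. Under those weights limma called 1 member, miR-146a, with a background of 3.89% of tested probes called. It was called in no other setting, and since the members were chosen with these values known, the call carries no test. miR-146b ranged from 0.35 to 1.21, with AA above control in 2 of 18. A kept direction is no sign of stability for probes chosen with these values known.

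**Figure D5:**
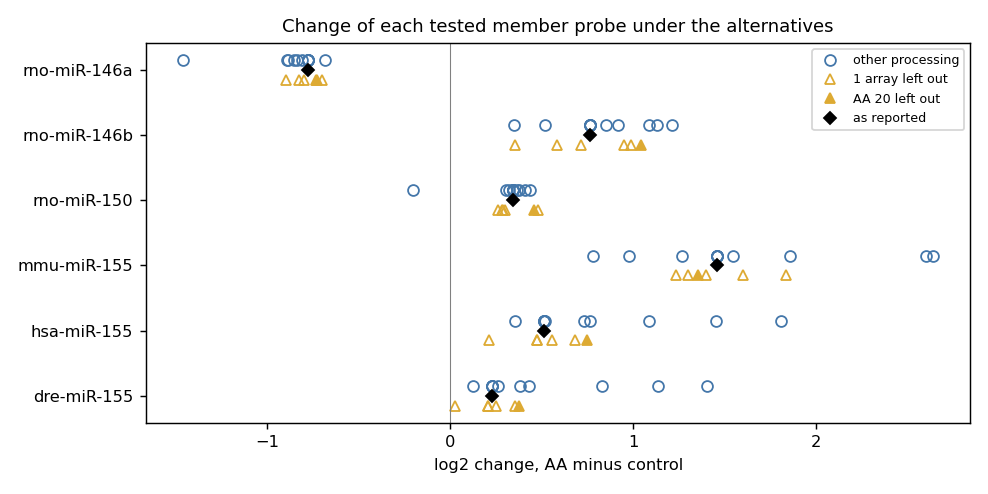
Log2 change of AA minus control (x axis) of each tested member probe (y axis) as reported, with 1 array left out, with AA replicate 20 left out and under other processing. For rno-miR-146a all points are below 0 and for mmu-miR-155 all are above 0, while rno-miR-150 is at -0.20 with no normalization.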

How the data were processed

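The arrays were read in 1 colour, Cy3. Each deposited scanner file lists the median pixel intensity for 15066 spots, without background correction or normalization. A second table, also deposited by the authors, holds normalized intensity, made by background subtraction and a LOWESS filter, on a linear scale and not centred. Its column medians were 2.41, 2.19 and 2.40 in control and 2.37, 1.22 and 1.99 in AA (replicates in order). Its log2 values followed the scanner signal of the same array with a Pearson's r of 0.969 or more across 566 probes. The LOWESS reference and the combination of spots are unknown.

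Here, scanner intensity was corrected with normexp (offset 50) over all spots. Control and blank spots were dropped, log2 signal was quantile-normalized, and spots of a probe were averaged. Probes at 32 or more on at least 1 array in the deposited table were tested (1 probe outside it by scanner signal) with limma 3.58.1 (lmFit, then eBayes; R 4.3.3), and p-values were adjusted by Benjamini-Hochberg across 1132 probes. The code was tested on simulated data. The signal over background and the 6 arrays limit the precision, and p-values measure the spread between animals and arrays together.

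The members and lists were chosen with earlier results of these data known. All members are named. Of the other-species probes and of each list, the rule names the most different probe, or the highest and the lowest, and of passenger strands those at 32 or more. Further ones are named after their values were seen. Sequences and positions come from RefSeq (GRCr8), where 6 member probes matched. The array files name no genome build. Alternatives covered the background, normalization, filter, test, array weights, spots, deposited values and leaving out each array.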

Additional observations from a re-analysis of the deposited data

How the results depend on the processing

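Between 18 settings, the count of all tested probes called (2) was 0 under cyclic loess, median scaling or no normalization, 44 with array quality weights, and 0 to 3 with 1 array left out (3 without AA replicate 20 and 0 without any 1 other array). The count of members called (0) was 1 with array quality weights, miR-146a, and 0 otherwise, and it carries no test for members chosen with these values known. Listed non-members called (0) were 2 with array quality weights. Of the members' log2 changes, 1 of 106 changed sign: miR-150, at -0.20 with no normalization. Settings that changed only the filter, the test or the averaging of spots repeated the reported change, so they could not turn its sign. The neighbours shared with the reported 12 were 3 under median scaling and 4 in the deposited values. The methods' t-test gave 2 members at an unadjusted threshold of 0.05 and 0 after Benjamini-Hochberg adjustment. Over all 1132 tested probes it gave 53 and 2. Over all tested probes, the median of the log2 change, -0.05, was 0.24 under median scaling, -0.32 with no normalization, -0.17 in the deposited values and -0.16 with the empty-spot median subtracted, the median used since the files hold no local background. The cause of these shifts was not tested. No paired analysis was possible because the groups share no replicate numbers. The planned block for slide or scan could not be fitted, since no label or file gives either. Dim probes limit what can be seen: 4 of 12 members were well above background on no array.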
